A study of Homo sapiens with 4 samples.

Results

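The genes described here are the ZNF genes of human chromosome 19, in RNA immunoprecipitation sequencing (RIP-seq) of ORC1, a subunit of the complex that marks origins of DNA replication. They were chosen as the protein-coding genes of GENCODE v44 on that chromosome whose symbol is ZNF followed by a number and at most 1 letter. The rule gave 246 genes, against 63677 genes in the whole table, and used no measured value. An identifier in the table was found for 244 of them. ZNF229 and ZNF8 were not joined and are not analysed here. Counts were sufficient for a test in 157 genes. The 87 genes that were not tested had at most 28 counts over all libraries together, with a median of 1, and 42 of them had no count in any library.

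RNA was sequenced from 4 libraries of HCT116, an established human colorectal carcinoma line, in which all cells were transfected for 48 h with a plasmid encoding ORC1 with a 3xFLAG tag. In 2 libraries RNA came from nuclear extracts precipitated without crosslinking with the FLAG M2 antibody (IP, replicates 1 and 2). In the other 2 it came from the Inputs of the same RIP replicates, with no antibody. The tagged ORC1 was transiently overexpressed, and no untransfected cells and no control antibody are among these samples. The study describes the FLAG precipitation as done in duplicate, and p-values measure the spread between these libraries.

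C2H2 zinc finger proteins bind DNA through tandem fingers, each a short fold held by a zinc ion between a pair of cysteines and a pair of histidines. Most of the chromosome 19 genes lie in head-to-tail clusters that grew by duplication, and many of their proteins carry a KRAB box, which recruits the corepressor TRIM28 and with it the H3K9 methyltransferase SETDB1 to silence retrotransposons and other targets. The whole finger array is usually encoded in 1 long exon, so the coding length follows the number of fingers.

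The coding sequences of the 246 genes showed this layout. The median coding length was 1741.5 bases (510 to 4038), the median number of fingers was 12 (1 to 36), and the largest exon held a median of 87.6% of the coding bases. Coding length and number of fingers had a Spearman rho of 0.78 across the 246 genes. A KRAB box was found in 209 of the 246 and in 128 of the 157 tested. With gene bodies under 500 kb apart taken as neighbours, the genes formed 20 clusters, of which 7 held 1 gene. Clusters are numbered along the chromosome from the end of the short arm.

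The repeated unit is shown for 3 genes with large and 2 with low IP/Input fold changes, because the likeness between units may bear on how reads are assigned among these genes. Each line is the coding strand of 1 finger and its linker, 84 bases, with the codons of the zinc-binding cysteines and histidines in capitals.
ZNF675, finger 1 of 11, GRCh38 chr19:23654078-23654161, minus strand: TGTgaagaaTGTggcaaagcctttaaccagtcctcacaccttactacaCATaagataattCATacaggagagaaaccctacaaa
ZNF91, finger 2 of 31, GRCh38 chr19:23362094-23362177, minus strand: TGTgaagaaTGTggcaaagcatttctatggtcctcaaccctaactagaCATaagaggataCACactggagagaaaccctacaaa
ZNF616, finger 1 of 21, GRCh38 chr19:52116522-52116605, minus strand: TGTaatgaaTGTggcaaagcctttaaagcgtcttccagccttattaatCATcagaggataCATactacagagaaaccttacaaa
ZNF587B, finger 2 of 15, GRCh38 chr19:57841404-57841487, plus strand: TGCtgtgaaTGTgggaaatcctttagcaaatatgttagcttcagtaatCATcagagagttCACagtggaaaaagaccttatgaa
ZNF581, finger 1 of 4, GRCh38 chr19:55644836-55644919, plus strand: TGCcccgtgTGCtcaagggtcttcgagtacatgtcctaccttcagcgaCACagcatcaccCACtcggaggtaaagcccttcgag
The units of ZNF675 and ZNF616 matched that of ZNF91 at 82.1% and 77.4% of positions, ZNF587B at 58.3% and ZNF581 at 42.9%. The in-frame coding word of 21 bases found in more of the 246 genes than any other spans the end of a finger and the linker.
Linker word, last histidine codon of the finger in capitals: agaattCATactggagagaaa
It was found in 56 of the 246 genes (22.8%) and in 38 of 19800 other protein-coding genes (0.192%). The word was chosen for its frequency among the 246, which partly sets this contrast. The other genes include the 262 ZNF genes of other chromosomes, whose share was not counted separately.

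Sequence shared between genes is a limit on single-gene values, whether it comes from this likeness or from overlapping exons. Words were matched on either strand, so both count below. In the tested genes a median of 4.56% of the 50-base words of the transcripts also occurred in transcripts of other genes, with 0 in 32 genes, at least 10% in 51, and a highest value of 86.2%. The highest was ZNF564, where 69.9% of exonic bases overlap other genes on the same strand. ZNF443 had 39.2% of its words shared and a same-strand overlap of 7.7%. Shared words of ZNF675, ZNF91 and ZNF616, whose units are shown above, were 3.9%, 7.0% and 0.84%. Exons of 93 of the 157 overlap exons of another gene, and neither the strand setting of the counting nor the treatment of reads with several alignments is stated.

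Total counts in IP were 27483148 and 20280445, replicate 1 given before replicate 2 here and below, and those of the Inputs were 14677002 and 9213877. Levels are given as CPM, counts relative to the library size after TMM scaling, which sets libraries to a common trimmed mean of ratios. RNA counted for ORC1 was at 1108 and 18551 CPM in IP and at 333 and 5063 CPM in Input, so replicate 2 held 16.7-fold and 15.2-fold more than replicate 1. How much plasmid RNA is counted there was not tested. The epithelial markers EPCAM, CDH1, KRT8, KRT18 and KRT19 were at 46.8 CPM or more in every library, whereas PTPRC, PECAM1, COL1A2 and ALB had between 0 and 4 counts.

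The chromosome 19 ZNF RNAs were scarce. They took 0.221% and 0.251% of all counts in IP and 0.273% and 0.293% in Input (0.236% ± 0.021 and 0.283% ± 0.014, mean ± SD, n = 2 per group). An exact two-sided permutation test gave p = 0.333, the smallest that 2 against 2 libraries allow. The order turned with the scaling. In TMM-scaled CPM, which sets the fold changes below, their summed level was 2923 and 2897 in IP and 2291 and 2309 in Input. Per kb of exonic length, taken over the merged exons of all transcripts, the median Input level of a tested gene was 1.68 CPM. Over the 12542 protein-coding genes tested it was 4.49 CPM. Bulk counts cannot tell fewer cells with an RNA from less RNA per cell.

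IP was compared with Input to ask which RNAs of the nucleus came down with ORC1-FLAG. Of the 157 tested genes, 19 (12.1%) were called enriched and 5 (3.18%) depleted by edgeR, with an adjusted p under 0.05 and a change of more than 1 in size on the log2 scale. Over all 14645 genes tested, 10.5% were called enriched and 8.3% depleted, so the enriched share was close to the background and the depleted share lay below it. That background is not matched for length. Among other protein-coding genes, 18.2% were depleted under 1200 coding bases, 3.90% from 1200 to under 1800 and 0.93% from 1800 to under 2400. Only 14 of the 157 ZNF genes are under 1200 bases. With the replicate number as a block, 21 were enriched and 9 depleted, against 13.4% and 13.4% of all genes. The genes added by the block, named after their values were seen, were ZNF614 and ZNF653 among the enriched and ZNF586, ZNF738, ZNF154 and ZNF546 among the depleted. The median log2 fold change was 0.34 (quartiles -0.16 and 0.75), against 0.01 over all genes tested and 0.08 over protein-coding genes. It ranged from -2.70 for ZNF154, which had 3 to 47 counts per library and was not called (edgeR adjusted p = 0.102), to 2.18 for ZNF675.

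Both IP libraries lay above both Inputs in 74 genes (47.1%) and below them in 28 (17.8%), where the background was 33.2% and 31.9%. The median IP/Input ratio on the log2 scale was 0.31 and 0.27 in the replicates. Across the 157 genes the ratios of the 2 replicates had a rho of 0.80, and across all tested genes of 0.86. In 149 of the 157 genes both Inputs held at least 10 counts, so few could have passed the count filter through the IP alone, and the median over these 149 was 0.30.

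**Figure D1:**
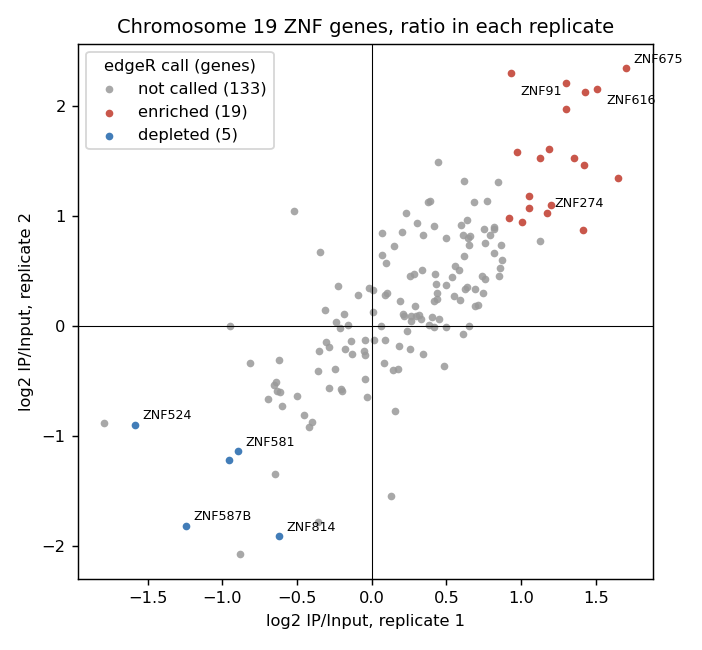
Log2 ratio of IP to Input in replicate 1 (horizontal axis) and replicate 2 (vertical axis) from TMM-scaled CPM with a pseudocount of 0.5, 1 point for each of the 157 genes tested, coloured by edgeR call. The 19 enriched genes lie above 0 and the 5 depleted genes below 0 in both replicates, which their selection by the call largely sets.

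ZNF genes elsewhere in the genome had a similar median. Among 208 tested ZNF genes of other chromosomes, 19 were enriched (9.13%) and 0 depleted by edgeR (23 and 3 with the block). Their median log2 fold change was 0.29. Among the 754 other protein-coding genes tested on chromosome 19, 71 were enriched (9.42%) and 45 depleted (5.97%), with a median of 0.07. Over all genes tested the shares were 10.5% and 8.3%. The difference between these lists was not tested.

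The genes with the largest fold changes came from clusters 6 and 18. ZNF675 (ENSG00000197372, chromosome 19 from 23525631 to 23687220, minus strand), whose protein binds the signalling adaptor TRAF6, had 10.5 and 9.84 CPM in IP against 2.86 and 1.54 CPM in Input. This gave a log2 fold change of 2.18 ± 0.37 (± SE here and below, n = 2 per group, edgeR adjusted p = 0.0132). ZNF91 (ENSG00000167232, 23304991 to 23395471, minus strand), a KRAB protein that silences SVA retrotransposons and has the longest coding sequence of the tested genes, 3573 bases with 31 fingers, had 9.17 and 10.3 CPM in IP against 3.09 and 1.97 CPM in Input. The log2 fold change of ZNF91 was 1.92 ± 0.34 (edgeR adjusted p = 0.0139). In both genes the IP libraries were close together and the Input of replicate 2 was the lower one.

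ZNF616 (ENSG00000204611, 52113091 to 52139938, minus strand), a KRAB zinc finger gene of cluster 18, had 43.5 and 48.9 CPM in IP against 14.9 and 10.6 CPM in Input, with a log2 fold change of 1.85 ± 0.26 (edgeR adjusted p = 0.0107). ZNF761, also of cluster 18, had 49.5 and 58.2 CPM in IP against 19.8 and 12.2 CPM in Input, with a log2 fold change of 1.74 ± 0.29 (edgeR adjusted p = 0.0131). ZNF845, of the same cluster and with 26 fingers, had 48.6 and 46.4 CPM in IP against 19.5 and 11.5 CPM in Input, with a log2 fold change of 1.61 ± 0.30 (edgeR adjusted p = 0.0150). These 5 genes kept their call when any 1 library was left out. ZNF441, of cluster 4, was less abundant, with 4.71 and 6.60 CPM in IP against 1.89 and 1.97 CPM in Input. With a log2 fold change of 1.55 ± 0.38 (edgeR adjusted p = 0.0304), it lost its call without IP replicate 2 (adjusted p = 0.178).

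All 19 enriched genes carry a KRAB box and all had both IP libraries above both Inputs. The other 13 were ZNF823, ZNF443 and ZNF700 in cluster 4, ZNF14, ZNF430, ZNF708 and ZNF724 in cluster 6, ZNF30 in cluster 9, ZNF160, ZNF577, ZNF600 and ZNF613 in cluster 18, and ZNF274 in cluster 20, with log2 fold changes from 1.03 to 1.54. Reads of ZNF724 and ZNF443 are the least certain, since 55.4% and 39.2% of their transcript words occur in other genes.

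All 5 depleted genes lay in clusters 19 and 20, at the end of the long arm, and the block added ZNF738 in cluster 6 and ZNF546 in cluster 11. ZNF587B (ENSG00000269343, 57819721 to 57846238, plus strand), a KRAB gene of cluster 20, had 7.40 and 6.88 CPM in IP against 18.2 and 25.6 CPM in Input. ZNF587B had a log2 fold change of -1.61 ± 0.27 (edgeR adjusted p = 0.0130) and kept its call when any 1 library was left out. Its neighbour ZNF587 had 8.79 and 9.22 CPM in IP against 17.5 and 22.2 CPM in Input, with a log2 fold change of -1.14 ± 0.24 (edgeR adjusted p = 0.0207). It shares 42.3% of its transcript words with other genes, and it lost its call without IP replicate 1 (adjusted p = 0.0994). ZNF814, on the opposite strand, with 19.1% of its exonic bases overlapping ZNF587 and other genes, had 3.70 and 3.02 CPM in IP against 5.96 and 12.8 CPM in Input. For ZNF814 the log2 fold change was -1.47 ± 0.42 (edgeR adjusted p = 0.0470), and without Input replicate 2 the call was lost at -0.98 (adjusted p = 0.144). Reads of these 3 adjacent genes may not be independent of one another.

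ZNF581 and ZNF524, the depleted genes of cluster 19, are short and have no KRAB box. ZNF581 (591 coding bases) had 12.6 and 9.50 CPM in IP against 23.9 and 21.6 CPM in Input, with a log2 fold change of -1.04 ± 0.25 (edgeR adjusted p = 0.0281). It lost its call without IP replicate 1 (adjusted p = 0.0524), without IP replicate 2 (adjusted p = 0.167) and without Input replicate 1, where its log2 fold change was -0.92. ZNF524 (792 coding bases) had 1.82 and 1.88 CPM in IP against 6.47 and 3.94 CPM in Input, with a log2 fold change of -1.49 ± 0.42 (edgeR adjusted p = 0.0429). It lost its call without either IP library or Input replicate 1 (adjusted p from 0.0945 to 0.250). ZNF580, which shares exons on the same strand with ZNF581, went the other way, with 17.1 and 9.90 CPM in IP against 10.8 and 5.48 CPM in Input. The ZNF580 value of 0.72 ± 0.41 on the log2 scale did not pass the test (edgeR adjusted p = 0.234). Its ratios within the replicates were alike, at 0.65 and 0.80. With the block it was at 0.75 (edgeR adjusted p = 0.00468), under the minimum of 1. Leaving out 1 library moved it to 1.11 (IP replicate 2), 1.34 (Input replicate 1), 0.31 (IP replicate 1) or 0.18 (Input replicate 2).

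**Figure D2:**
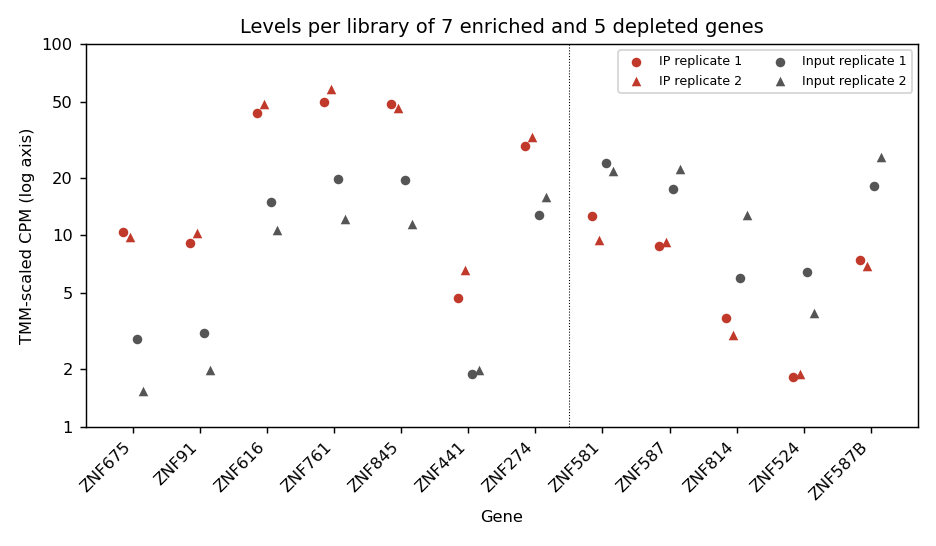
TMM-scaled CPM (log axis) in each of the 4 libraries for 7 enriched genes (left of the dotted line) and the 5 depleted genes (right), with IP in red, Input in grey, replicate 1 as circles and replicate 2 as triangles. None of these 12 genes has overlapping IP and Input values, which their selection by the call largely sets. ZNF675, ZNF91 and ZNF441 reach at most 3.09 CPM in Input.

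Besides ZNF91, 4 genes of known role were tested, with log2 fold changes from 0.21 to 1.12. ZNF274, which guides SETDB1 to the ends of ZNF genes, was the only enriched gene among the 35 tested in cluster 20, with 29.3 and 32.8 CPM in IP against 12.7 and 15.8 CPM in Input and a log2 fold change of 1.12 ± 0.24 (edgeR adjusted p = 0.0198). ZNF808, a repressor of MER11 elements, had 20.3 and 25.7 CPM in IP against 13.9 and 18.7 CPM in Input, and its log2 fold change of 0.50 ± 0.26 did not pass the test (edgeR adjusted p = 0.206). ZNF611, which binds SVA elements, had 10.6 and 16.4 CPM in IP against 9.91 and 13.4 CPM in Input, with overlapping groups and a log2 fold change of 0.21 ± 0.31. ZNF224, a KRAB repressor, had 2.45 and 3.75 CPM in IP against 1.38 and 2.05 CPM in Input, and 48.1% of its words occur in other genes, so its log2 fold change of 0.86 ± 0.49 is uncertain on both counts.

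ZNF93, which silences LINE-1 elements, had 1 count, in IP replicate 1, and ZNF420 had 1, in Input replicate 2. The imprinted gene ZNF331 and ZNF568 had no count in any library. With no count, levels of up to 0.144 CPM in IP replicate 1 and 0.257 CPM in Input replicate 2 (3 counts) were not detectable, counting error only.

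The 3 genes most abundant in Input did not pass the test. ZNF146, a protein made almost entirely of fingers, had 289 and 148 CPM in IP against 196 and 101 CPM in Input, so that each replicate gave the same ratio, 0.56 and 0.55 on the log2 scale, while the groups overlapped. Its log2 fold change was 0.56 ± 0.43 (edgeR adjusted p = 0.377), and it moved with single libraries, from 0.03 without IP replicate 1 and 0.00 without Input replicate 2 to 1.01 without IP replicate 2 and 1.15 without Input replicate 1. With the block, the log2 fold change of ZNF146 was also 0.56 (edgeR adjusted p = 0.00977), under the minimum of 1. ZNF121 had 85.6 and 122.4 CPM in IP against 165.9 and 122.9 CPM in Input, with a log2 fold change of -0.47 ± 0.28 that ranged from -0.82 without Input replicate 2 to -0.20 without IP replicate 1 or Input replicate 1. ZNF460 had 79.0 and 97.2 CPM in IP against 74.6 and 123.2 CPM in Input, with a log2 fold change of -0.17 ± 0.30.

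The IP/Input ratio followed coding length less closely than among other genes. Across the 157 genes, the log2 fold change had a rho of 0.22 with coding length (0.23 and 0.21 in the 2 replicates) and of 0.21 with the number of fingers. Over 12177 other protein-coding genes without a ZNF symbol the rho with coding length was 0.59, and over 208 ZNF genes of other chromosomes it was 0.44. Part of this gap goes with the narrow range of lengths. Restricted to the span of the tested ZNF genes, 510 to 3573 bases, the rho of 9890 other genes was 0.48, and between their quartiles, 1494 and 2013 bases, it was 0.17 in 1883 other genes and 0.03 in 79 ZNF genes. These correlations are across genes, which share libraries, sequence and, within clusters, ancestry, and they are given as descriptions. Exonic length merges the exons of all transcripts of a gene, with untranslated parts, and so is not the length of 1 mRNA. With it, the rho over the 157 genes was -0.05, against 0.09 in ZNF genes of other chromosomes and 0.30 in other protein-coding genes.

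Below 1200 coding bases, 14 genes had a median log2 fold change of -0.25, with 0 enriched and 2 depleted (14.3%). The 4920 other genes had -0.45, with 2.78% enriched and 18.2% depleted. From 1200 to under 1800 bases the median of 71 genes was 0.39, with 4 enriched (5.63%) and 1 depleted (1.41%). The median of 2821 other genes was 0.01, with 6.13% enriched and 3.90% depleted. From 1800 to under 2400 bases 57 genes had a median of 0.37, with 12 enriched (21.1%) and 1 depleted (1.75%). The 1609 other genes also had 0.37, with 13.0% enriched and 0.93% depleted. At 2400 bases or more 15 genes had a median of 0.37, with 3 enriched (20%) and 1 depleted (6.67%). The 2827 other genes had 0.80, with 935 (33.1%) enriched and 0.32% depleted. Lengths within a class also differed. From the shortest class to the longest, median coding lengths in ZNF and other genes were 922.5 against 771 bases, 1593 against 1461, 1995 against 2076 and 2709 against 3402. In the class with 1995 against 2076 bases the median log2 fold changes were equal. In ZNF genes of other chromosomes the medians were 0.005, 0.03, 0.29 and 0.65, from the shortest class to the longest. Their enriched shares were 3.70%, 5.88%, 6.25% and 20.8%, with 0 depleted in each class. The last share was close to the 20% of the chromosome 19 genes. The differences were not tested.

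The longest and shortest genes show how loose the relation was. Besides ZNF91, the longest were ZNF850, with 1.73 and 2.05 CPM in IP, 0.92 and 2.05 CPM in Input and a log2 fold change of 0.37 ± 0.58, and ZNF865, with 14.2 and 18.9 CPM in IP, 9.11 and 12.1 CPM in Input and a log2 fold change of 0.65 ± 0.27. The latter has the same coding length as ZNF628, 3177 bases. Neither was called (edgeR adjusted p = 0.681 and 0.127). Besides ZNF580, the shortest were ZNF576, with 6.68 and 4.89 CPM in IP, 7.79 and 7.53 CPM in Input and a log2 fold change of -0.40 ± 0.30, and ZNF428, with 11.8 and 6.20 CPM in IP, 9.97 and 6.42 CPM in Input and a log2 fold change of 0.13 ± 0.39.

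**Figure D3:**
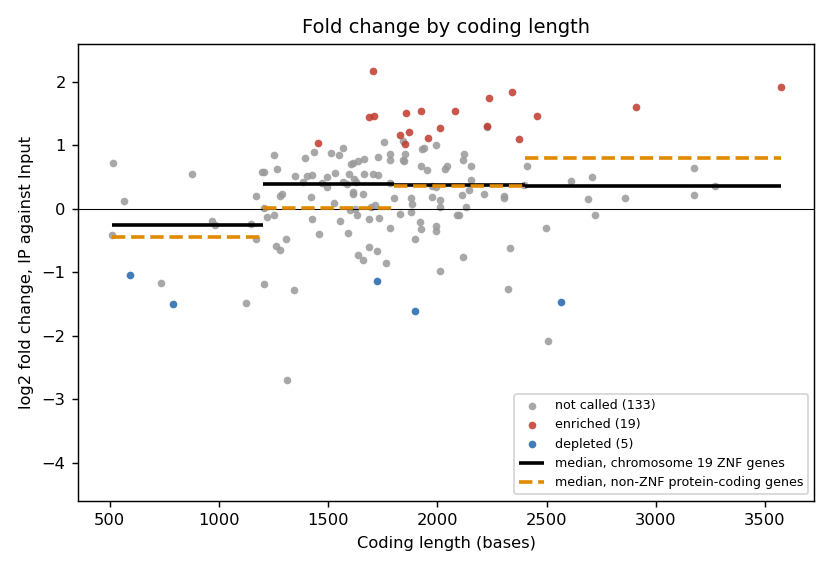
EdgeR log2 fold change of IP against Input by coding length in bases, 1 point for each of the 157 genes, coloured by call, with the median of the ZNF genes (black) and of other protein-coding genes (orange, dashed) in 4 length classes. The black line lies above the orange one below 1800 bases and below it from 2400 bases, at 0.37 against 0.80.

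The values also differed by position along the chromosome, which was not tested. Over all genes tested, 10.5% were called enriched and 8.3% depleted. Cluster 4 (ZNF653 to ZNF791, 11483427 to 12640098) had a median log2 fold change of 0.82 over 13 tested genes, with 4 enriched (30.8%) and 0 depleted. Cluster 6 (ZNF101 to ZNF254, 19668796 to 24129968) had 0.71 over 14, with 6 (42.9%) and 0, and its median was 0.38 without Input replicate 2. Cluster 18 (ZNF175 to ZNF331, 51571283 to 53580269) had 0.86 over 25, with 7 (28%) and 0. In cluster 18 the lowest log2 fold change was 0.03, and both IP libraries lay above both Inputs in 21 of the 25 genes, where the background was 33.2%.

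Toward the end of the long arm the values were lower. Cluster 19 (ZNF628 to ZNF835, 55476617 to 56671783) had a median of -0.24 over 9 tested genes, with 0 enriched and 2 depleted (22.2%). Its tested genes were short, with a median coding length of 981 bases against 1731 over the 157 genes. Both depleted genes lie under 1200 bases, where 18.2% of other protein-coding genes were depleted. Position and length were not told apart here. Cluster 20 (ZNF264 to ZNF446, 57191500 to 58481230), with 35 genes tested, had a median of -0.13, with 1 enriched (2.86%) and 3 depleted (8.57%). Its depleted share was close to the 8.3% of all genes tested. Both IP libraries lay below both Inputs in 12 of the 35, which is near the background of 31.9%. Without Input replicate 2 the median of cluster 20 was 0.00. The other clusters with at least 10 tested genes lay between, at 0.23 in cluster 3 (10 genes), 0.05 in cluster 10 (12 genes) and 0.39 in cluster 13 (18 genes), and none of these 40 genes was called in either direction.

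Clusters 4, 6 and 18 were put together after their values were seen and so are given with no test. They held 17 of the 19 enriched and 0 of the 5 depleted genes among 52 tested (32.7% enriched), with a median of 0.84. Clusters 19 and 20 held 1 enriched (2.27%) and 5 depleted (11.4%) among 44, with a median of -0.15. All other clusters held 1 enriched (1.64%) and 0 depleted among 61, with a median of 0.23. The medians of the 3 groups were 0.65, -0.09 and 0.28 in replicate 1 and 0.92, -0.24 and 0.19 in replicate 2. The order was the same within the 2 middle length classes. Because the groups were chosen by these values, that choice partly sets the order in the replicates and in these classes. From 1200 to under 1800 bases the medians were 0.74 over 26 genes, -0.15 over 24 and 0.26 over 21, and from 1800 to under 2400 bases they were 1.07 over 21, 0.03 over 11 and 0.24 over 25. The order differed in the outer classes, which hold few genes. Under 1200 bases the values were -1.48 for 1 gene, -0.25 over 6 and 0.13 over 7, and from 2400 bases they were 1.54 over 4, 0.23 over 3 and 0.16 over 8. Within clusters, length went with the ratio unevenly, with a rho of 0.89 over the 13 genes of cluster 4, 0.34 over the 25 of cluster 18 and -0.06 over the 35 of cluster 20. Between 0 and 9 other protein-coding genes per cluster were tested, so the surroundings are described only roughly. In cluster 19, 9 such genes had a median of 0.66, with 0 enriched and 0 depleted, against -0.24 over its 9 ZNF genes. In cluster 20, 5 had a median of -0.57, with 0 enriched and 1 depleted. The 3 in cluster 4 and the 3 in cluster 18 had medians of -0.13 and 0.07, and cluster 6 had 0 tested.

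**Figure D4:**
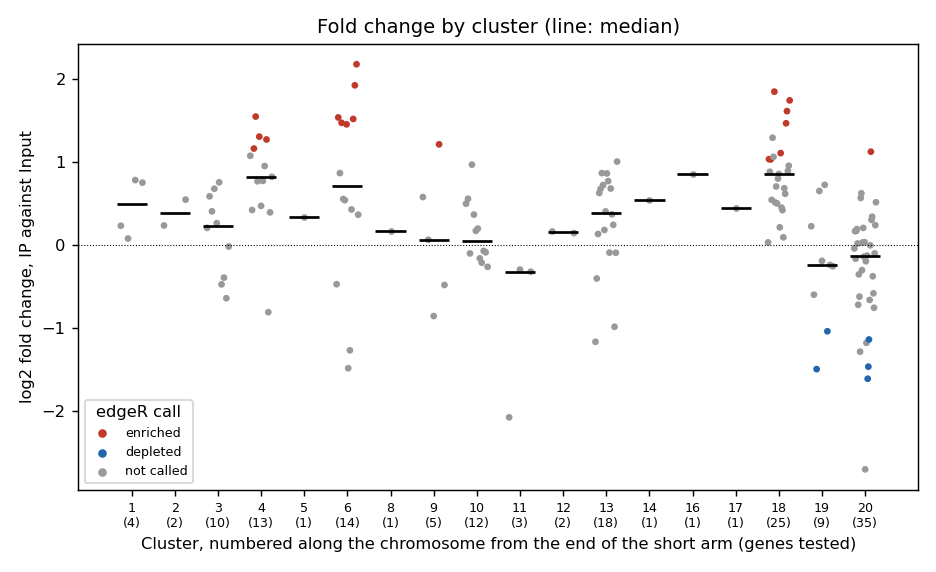
EdgeR log2 fold change of IP against Input for the 157 genes, by cluster along chromosome 19, with the number tested in parentheses, points coloured by call and a line at each median. Medians reach 0.82, 0.71 and 0.86 in clusters 4, 6 and 18, and the 5 depleted genes lie in clusters 19 and 20.

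Base composition moved with the clusters. The median GC content of the coding sequence was 40.4% in clusters 4, 6 and 18 and 47.7% in clusters 19 and 20. Over the 157 genes the rho of log2 fold change with coding GC was -0.34 (-0.24 and -0.40 in the replicates), against -0.05 in other protein-coding genes. Within clusters it was -0.11 in cluster 4, -0.10 in cluster 6, -0.04 in cluster 18, -0.45 in cluster 13, 0.20 in cluster 10, 0.35 in cluster 19, 0.46 in cluster 20 and 0.55 in cluster 3. Its part in the difference between clusters was not tested.

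Calls were also counted by the presence of a KRAB box, with no test of the difference. Over all genes tested, 10.5% were called enriched and 8.3% depleted. Among the 128 tested genes with a KRAB box, 19 were enriched (14.8%) and 3 depleted (2.34%) by edgeR, with a median log2 fold change of 0.40. Among the 29 without, 0 were enriched (1 with the block) and 2 depleted (6.90%), with a median of 0.16. ZNF580 and ZNF146 rose above 1 when single libraries were left out, as above. The genes without a KRAB box were richer in GC, at a median of 64.9% against 43.0%. On other chromosomes, 4 of 83 ZNF genes with a KRAB box (4.82%) and 15 of 125 without (12%) were enriched.

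The motif GAAGAA was sought in the sense strand of the canonical transcripts because the study concerns RNAs with GAA repeats. It was present in 80.9% of the 157 genes and in 82.3% of other protein-coding genes. The longer GAAGAAGAA, which contains it, was present in 5.73% (9 of 157) and in 14.9%, and in 0 of the 19 enriched and 0 of the 5 depleted genes. The number of GAAGAA copies had a rho of 0.27 with the log2 fold change over the 157 genes. This rho was 0.25 in ZNF genes of other chromosomes and 0.40 in other protein-coding genes. Over the 157 genes the copies had a rho of -0.57 with coding GC. ZNF91 had the most copies, 24, and ZNF675 had 12. The reverse complement TTCTTC was present in 68.2% of the 157 and in 71.1% of other genes.

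Among genes for the partners of KRAB proteins, SETDB1 was called enriched and TRIM28 was not. Of 24 genes for KRAB corepressors and H3K9 methylation, 23 were tested (UHRF1 was not joined), 13 were enriched and 0 depleted by edgeR, with a median log2 fold change of 1.23. The background was 10.5% enriched over all genes tested, but many of these genes are long. Of the 14 with at least 2400 coding bases 10 were enriched, in a length class where 33.1% of other protein-coding genes were. With the block 15 were enriched, adding CBX3 and MPHOSPH8. SETDB1 had 153 and 139 CPM in IP against 36.3 and 45.8 CPM in Input, with a log2 fold change of 1.83 ± 0.24 (edgeR adjusted p = 0.0105). TRIM28 had 1796 and 1359 CPM in IP against 809 and 796 CPM in Input, and its log2 fold change of 0.97 ± 0.29 lay under the minimum of 1 (edgeR adjusted p = 0.0491). The other 12 enriched genes were the SETDB1 partner ATF7IP, the NuRD subunits CHD3, CHD4, HDAC1 and HDAC2, the methyltransferase EHMT1, the silencing ATPases MORC2 and MORC3, the remodellers SMARCAD1 and ATRX, the histone chaperone DAXX and the DNA methyltransferase DNMT1, with log2 fold changes from 1.05 to 2.26. Of the HP1 genes, CBX1 and CBX5 had log2 fold changes of -0.31 and -0.81 and CBX3 of 1.34, and none of them passed the test without the block.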

How the data were processed

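HCT116 nuclear RNA was measured in 2 ORC1-FLAG IP and 2 Input libraries. The authors deposited raw counts of reads for each gene, not normalized. Per the study's methods and the submitters' processing notes, reads were trimmed with Trimmomatic, aligned to hg19 with STAR, stripped of reads on GL contigs and counted with featureCounts on Ensembl genes. Library totals ranged from 9213877 to 27483148, reads carry no molecular identifiers, and zero-count limits (3 counts) cover counting error only.

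Counts were tested with edgeR 4.0.16 (R 4.3.3): TMM scaling, filterByExpr, robust quasi-likelihood test of group alone, Benjamini-Hochberg adjustment over 14645 genes, called at adjusted p under 0.05 and more than 1 in size on the log2 scale. SE is the log2 fold change over the square root of F. On simulated counts of 14645 genes, with 200 changed by 2 on the log2 scale, the edgeR fit recovered 74.5% with 7 false calls. Ratios per replicate used a pseudocount of 0.5 CPM. Members and lists were chosen with earlier results of these data known. The labels assign Input and IP of a number to the same RIP replicate, and deviations of same-numbered libraries correlated (r = 0.645), so the replicate block was an alternative, as were other scalings, filters, DESeq2 1.42.0, limma 3.58.1 voom, pseudocounts, cluster gaps, length measures and leaving out each library. The Input minimum and the cluster medians under each fit were added after seeing the data.

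GENCODE v44 (GRCh38, not the build of the counts) gave coordinates, lengths and sequences through Ensembl identifiers; 380 tested genes had none there. Coding length, shared words and motifs refer to the canonical transcript. Exonic length is that of the exons of all transcripts of a gene, merged. Fingers were matched in the translated coding sequence by their cysteine and histidine spacing, and a KRAB box by at least 15 identities of 38 to the consensus of the genes' own boxes (at least 17 in genes with one, at most 11 in the others).

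Genes named are 9 of known role, the 6 enriched genes with the largest and up to 6 depleted with the lowest log2 fold change, the 3 longest, 3 shortest and 3 most abundant in Input, and of the corepressor list TRIM28, SETDB1 and all called genes. Genes named besides, to list all calls or to mark limits, were chosen after their values were seen.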

Additional observations from a re-analysis of the deposited data

How the results depend on the processing

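The scaling decided how many genes were called, since no spike-in is described. Scaling by library size only moved the median log2 fold change of all genes to -0.59 and that of the chromosome 19 ZNF genes to -0.25, with 5 enriched and 17 depleted. The 5 enriched and 5 of these depleted genes were also called with TMM. Upper-quartile scaling moved the all-gene median to -0.16 and gave 11 enriched genes and a median of 0.17. RLE size factors gave a median of 0.30 and limma voom 0.29. DESeq2 gave 3 depleted genes, a median of 0.39 and a rho with coding length of 0.16. Without the count filter the rho was 0.14, and with exonic length -0.052. The replicate block gave 9 depleted genes and a median of 0.28. The median was 0.44 over 64 genes without exonic overlap and 0.30 over the 149 genes with the Input minimum. The replicate 1 ratio had a median of 0.33 with a pseudocount of 0.1 CPM and 0.24 with 2 CPM, and replicate 2 had 0.22 with 2 CPM. The causes of these shifts were not tested.

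Leaving out each library gave 14 to 28 enriched genes, 2 (without IP replicate 1) to 6 depleted genes, medians of 0.26 to 0.36 and a rho of 0.17 to 0.28. With library size only, the log2 fold change turned negative for ZNF611 (-0.37), ZNF808 (-0.10), ZNF850 (-0.24), ZNF428 (-0.49) and ZNF146 (-0.060), none of them called with TMM. ZNF428 was also at -0.044 with upper-quartile scaling, -0.37 without IP replicate 1 and -0.30 without Input replicate 2. Leaving out each library gave -0.086 to 0.55 for ZNF611, -0.080 to 0.89 for ZNF850, -0.37 to 0.57 for ZNF428 and -0.44 to 0.093 for ZNF460, which had another value above 0 without IP replicate 1 (0.028). ZNF121 was called depleted with library size only, at -1.05. ZNF274 and ZNF441 lost their calls with library size only and with upper-quartile scaling, ZNF524 and ZNF581 with DESeq2 and ZNF814 with limma voom. The median of cluster 13 was -0.22 with library size only, while those of clusters 4, 6 and 18 remained positive, at 0.22, 0.12 and 0.27. Without the count filter the median of cluster 6 was 1.13.

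Depth limits the rarest of these genes, since the lowest count of a tested gene in a library was 2 and 8 of the 157 had under 10 counts in an Input.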
